A study of Rattus norvegicus with 24 samples.

Results

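The antioxidant defence enzymes described here are 10 genes chosen by name: the superoxide dismutases Sod1, Sod2 and Sod3, the peroxide-removing enzymes Cat, Gpx1 and Gpx3, the quinone reductase Nqo1, the heme oxygenase Hmox1, and Txnrd1 and Gclc of the thioredoxin and glutathione systems. They are the entries of the deposited expression table that carry one of these symbols, 10 of 21067 genes, and all 10 had a mean of at least 0.1 FPKM (fragments per kilobase of transcript, scaled to the mapped fragments of the library) over the 24 libraries, as had 14772 genes in all. Each library came from the quadriceps muscle of 1 Sprague-Dawley rat, 6 weeks old at the start and of either sex, and there were 6 libraries in each of 4 groups. The control group did no treadmill training. The treadmill group trained for 7 weeks at rising speed and then ran to exhaustion. Catgut group 1 was trained and exhausted in the same way after collagen thread had been embedded at the acupoints Bai Hui, Han Gou, Qian Shen, Qiang Feng, Xie Qi and Yang Wa, and catgut group 2 after thread at these points and at Fei Shu. No group received thread without training, and the training and the final run cannot be told apart when the treadmill group is compared with the control group. The thread was placed by needle under ether anaesthesia. The paper describes no sham group, so thread, needle and anaesthesia cannot be told apart.

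Working muscle makes superoxide in its mitochondria and at membrane oxidases. Superoxide dismutases turn it into hydrogen peroxide, which catalase, the glutathione peroxidases and the peroxiredoxins break down, and the glutathione and thioredoxin systems supply the reducing power from NADPH. Many of these genes are targets of the transcription factor NRF2 (Nfe2l2), which its partner KEAP1 holds at low levels and which binds the antioxidant response element together with small MAF proteins.

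In the coordinates of the deposited table, whose genome build is not given in the sources used here, the dismutases were Sod1 (ENSRNOG00000002115) at 11:30363280-30368862 on the plus strand, Sod2 (ENSRNOG00000019048) at 1:47914759-47921587 on the minus strand and Sod3 (ENSRNOG00000003869) at 14:60958592-60964324 on the minus strand. The peroxide-removing enzymes were Cat (ENSRNOG00000008364) at 3:93379874-93412058 on the minus strand, Gpx1 (ENSRNOG00000048812) at 8:117117430-117118522 on the plus strand and Gpx3 (ENSRNOG00000052564) at 10:40247436-40255422 on the plus strand. The remaining members were Nqo1 (ENSRNOG00000012772) at 19:38422164-38437180 on the plus strand, Hmox1 (ENSRNOG00000014117) at 19:14508616-14515456 on the plus strand, Txnrd1 (ENSRNOG00000009088) at 7:26946125-26984400 on the minus strand and Gclc (ENSRNOG00000006302) at 8:85059051-85097468 on the plus strand. Each value is that of the whole gene as the table gives it.

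The total count per library was 45945938 to 78278080, and the lowest count of any member was 219, for Hmox1 in a treadmill library. The commonest counts above 0 were 4 and 8, so a count may not be a single fragment. Counting error therefore cannot be read from these counts. The tissue label fitted the markers of skeletal muscle, whose 6 transcripts found in the table (among them Acta1 and Ckm) summed to 72258 to 96404 FPKM in every library. Other transcripts were unevenly spread. Fibroblast markers summed to over 400 FPKM in control replicate 4, treadmill replicate 2 and catgut group 2 replicate 2, against a median of 183 FPKM. Liver markers reached 246 FPKM in control replicate 2 and 382 FPKM in treadmill replicate 3, against a median of 14.0 FPKM. Most of that median was Tf (median 13.1 FPKM, lowest 9.40), and every other marker of the list had a median of at most 0.258 FPKM. Slow fibre transcripts summed to 5.99 to 4311 FPKM. Y-linked transcripts summed to less than 1 FPKM in 13 libraries (3 control, 3 treadmill, 3 catgut group 1 and 4 catgut group 2) and to 8.45 to 21.6 FPKM in the other 11, and the labels give no sex. In bulk muscle, fewer cells of a type and less RNA per cell cannot be told apart.

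Nqo1 was the member with the smallest p-values and the only one without overlap between any 2 groups. It was lowest in the treadmill group and higher in both catgut groups, without overlap between the treadmill libraries and those of either catgut group. Sod1 and Sod3 were higher in both catgut groups than in the treadmill group by smaller amounts. Against the control group, Gpx1 was higher in catgut group 2 and Hmox1 in catgut group 1, both by over 1.5 times in mean FPKM. No member had an adjusted p under 0.05 in any of the 6 comparisons between groups (edgeR's quasi-likelihood test with Benjamini-Hochberg adjustment over all 14772 genes). DESeq2 gave 1 such member in each comparison of a catgut group with the treadmill group, which was Nqo1, and 0 in the other 4, and limma gave 0 in all 6. Over all 14772 genes, DESeq2 called 140 and 306 in the comparisons of catgut groups 1 and 2 with the treadmill group. With edgeR, 7 and 35 were called there.

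**Figure D1:**
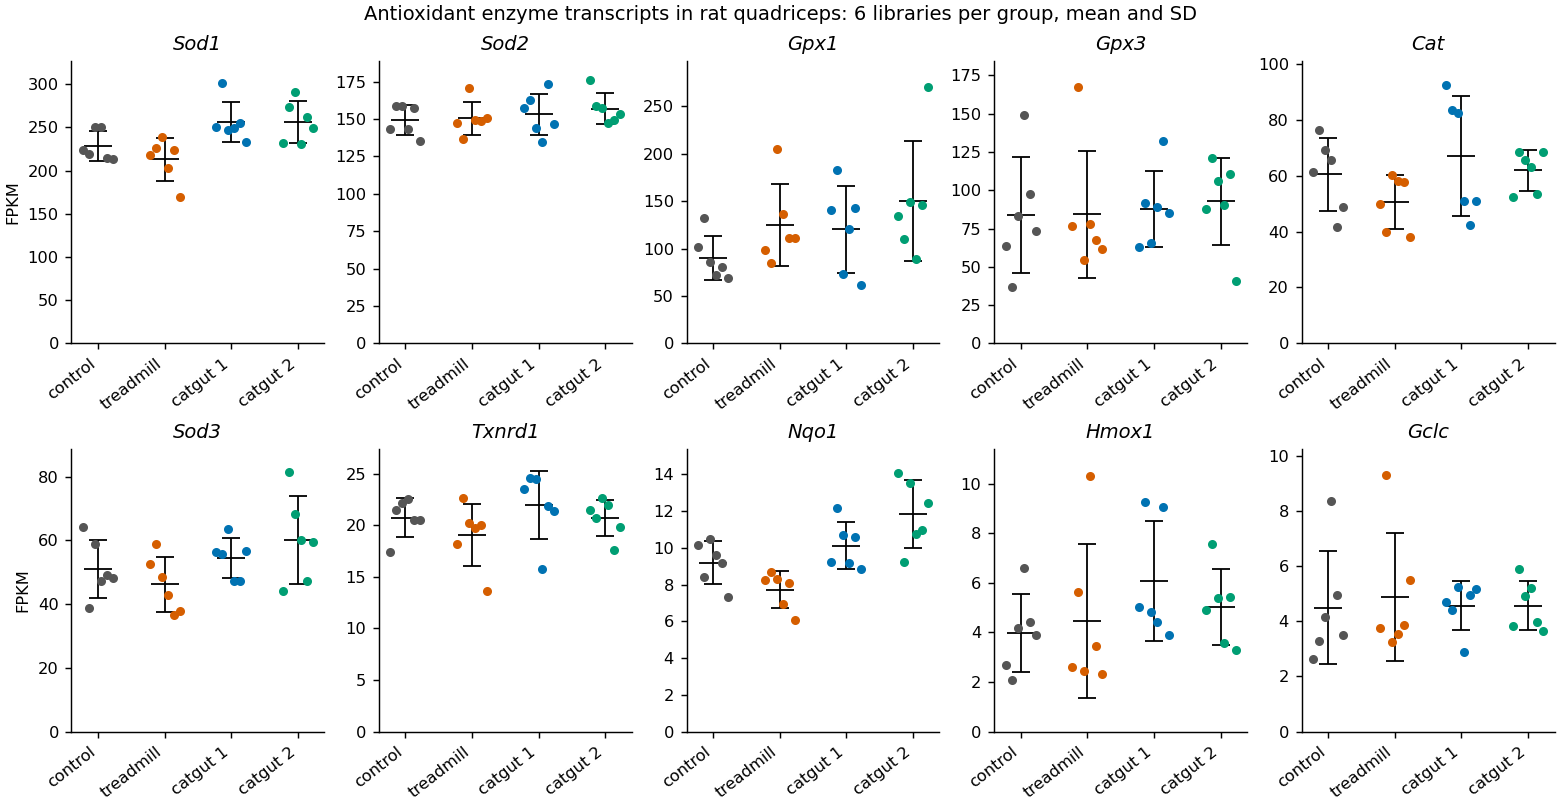
FPKM of the 10 antioxidant enzymes in each of the 24 libraries, by group. Points are libraries, the horizontal bars are the mean of 6 libraries and the whiskers 1 SD, and each panel starts at 0. The 6 treadmill libraries of Nqo1 lie between 6.05 and 8.67 FPKM, under all libraries of catgut group 1 (8.85 to 12.2 FPKM) and of catgut group 2 (9.22 to 14.1 FPKM).

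Since FPKM is scaled to transcript length, levels can be set side by side between genes. Sod1, the copper and zinc dismutase of the cytosol, had the highest mean level of the 10 (238 FPKM over 24 libraries) and was above 98.1 percent of the genes tested. It was followed by the mitochondrial manganese dismutase Sod2 (152 FPKM), by Gpx1, the cytosolic and mitochondrial glutathione peroxidase (121 FPKM), by Gpx3, the secreted glutathione peroxidase (87.2 FPKM), by the peroxisomal enzyme catalase (Cat, 60.0 FPKM) and by the extracellular dismutase Sod3 (53.0 FPKM). The reductases and inducible enzymes were lower. Txnrd1, the cytosolic thioredoxin reductase, had a mean level of 20.6 FPKM, Nqo1 had 9.72 FPKM, Hmox1 had 4.89 FPKM, and Gclc, the catalytic subunit of the enzyme that limits glutathione synthesis, had 4.63 FPKM. Some neighbours in this order were the same way round in all 24 libraries, namely Sod1 above Sod2, Sod3 above Txnrd1, and Txnrd1 above Nqo1. Nqo1 was above Hmox1 in 23, Sod2 above Gpx1 in 21, Gpx3 above Cat in 19, Gpx1 above Gpx3 in 17 and Cat above Sod3 in 16. Hmox1 was above Gclc in 12 of 24 libraries, so the order of these neighbours was not set by the data.

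The members also differed in their spread between rats of one group. The SD of log2(FPKM + 1) within groups was 0.11 for Sod2 and 0.14 for Sod1, below the median of 0.22 for all 10475 genes with a mean of at least 1 FPKM. It was 0.18 for Nqo1, 0.19 for Txnrd1, 0.26 for Sod3, 0.33 for Cat and 0.38 for Gclc. Gpx1 (0.49), Hmox1 (0.51) and Gpx3 (0.55) varied most, and 90.7 to 92.9 percent of those genes varied less than they did. A difference that could be resolved for Sod2 was thus far below one that could be resolved for Hmox1 or Gpx3.

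**Figure D2:**
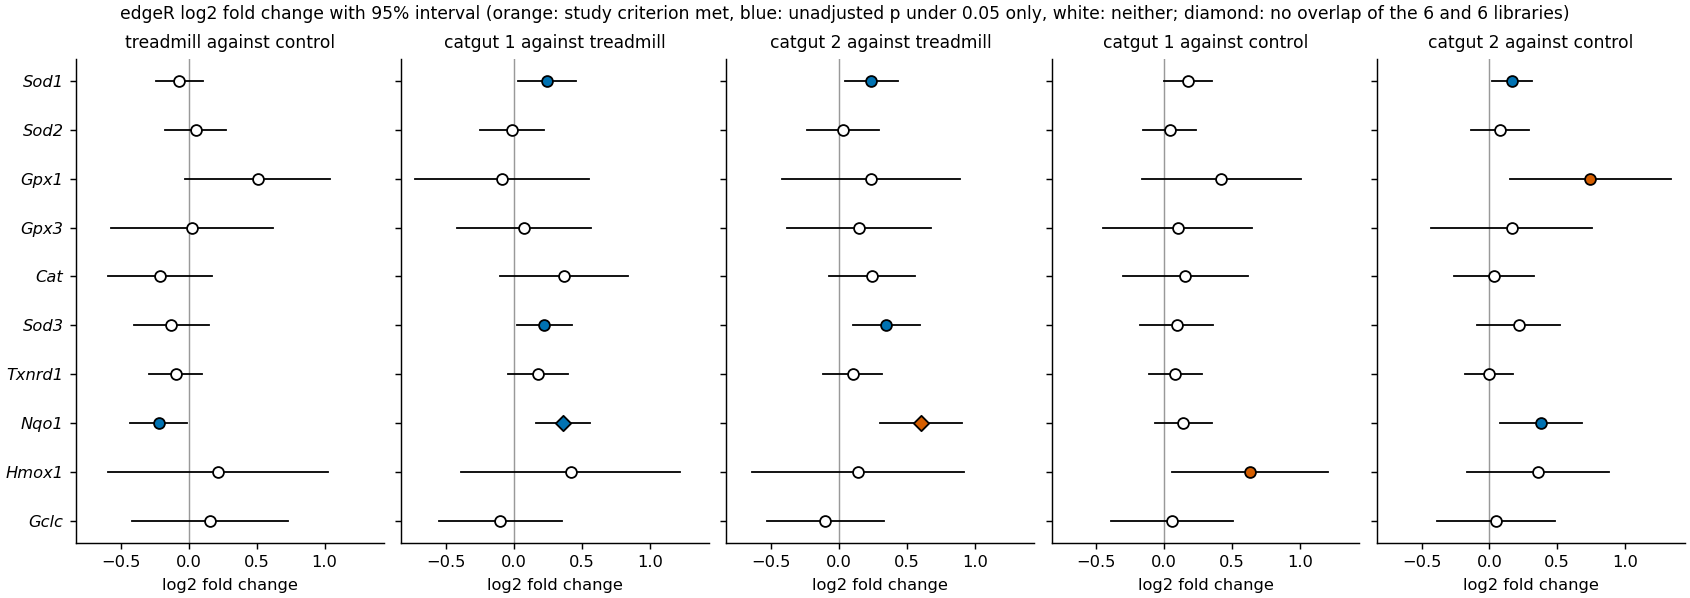
Log2 fold change of each member in 5 of the 6 comparisons, from edgeR, with its 95% interval (horizontal line). Orange marks a member that met the study's criterion, blue an unadjusted p under 0.05 only, white neither, and a diamond marks groups that did not overlap. The interval of Nqo1 lies above 0 in both comparisons with the treadmill group (0.17 to 0.56 and 0.30 to 0.91).

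The first comparison, of the treadmill group with the control group, asks what training and exhaustive running go with. An unadjusted p under 0.05 was found for 1 of the 10 members, against 9.12 percent of all genes tested. The study's criterion (mean FPKM differing by more than 1.5 times, together with an unadjusted p under 0.05) was met by 0 members, against 2.85 percent of all genes, and 0 members had groups without overlap, against 0.447 percent. An adjusted p under 0.05 was likewise found for 0 members, against 0.0542 percent. The median log2 fold change of the members was -0.023, and that of all genes was -0.0020. The difference with the smallest p was that of Nqo1, and the largest was that of Gpx1, and both are described with their values below.

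The comparison of catgut group 1 with the treadmill libraries asks what the embedding, with its needle and anaesthesia, added to training. Here 3 of 10 members had an unadjusted p under 0.05, all of them higher in catgut group 1, against 6.93 percent of all genes in either direction and 3.44 percent in that direction. The criterion was met by 0 members (3.12 percent of all genes), 1 member had groups without overlap (0.413 percent) and 0 had an adjusted p under 0.05 (0.0474 percent). The median log2 fold change was 0.20 for the members and -0.011 for all genes.

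For catgut group 2 against the treadmill group, 3 members had an unadjusted p under 0.05, again all higher, against 10.7 percent of all genes in either direction and 5.6 percent in that direction. The criterion was met by 1 member (3.76 percent of all genes), 1 had groups without overlap (1.04 percent) and 0 had an adjusted p under 0.05 (0.237 percent). The median log2 fold change was 0.19 for the members and 0.0035 for all genes. The 3 members were Nqo1, Sod1 and Sod3, as in catgut group 1. Both comparisons use the same 6 treadmill libraries, so they are not independent.

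The catgut groups were also set against the untrained control group and against each other. In catgut group 1 against control, 1 member had an unadjusted p under 0.05 (9.84 percent of all genes), 1 met the criterion (4.62 percent), 0 had groups without overlap (0.393 percent) and 0 had an adjusted p under 0.05 (0.0203 percent). In catgut group 2 against control, 3 members had an unadjusted p under 0.05 (16.4 percent), 1 met the criterion (5.95 percent), 0 had groups without overlap (1.09 percent) and 0 had an adjusted p under 0.05 (0.508 percent). Between the catgut groups, 0 members passed any of the 4 rules, against 3.26 percent of all genes for the unadjusted p, 1.25 percent for the criterion, 0.162 percent for groups without overlap and 0.00677 percent for the adjusted p. The 10 log2 fold changes between the catgut groups ran from -0.28 for Hmox1 to 0.32 for Gpx1. The 95% interval for Nqo1 there was -0.055 to 0.53, so it reached up to a difference of 1.45 times.

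Nqo1 reduces quinones in a single step and so keeps them from cycling with oxygen, and it is a standard reporter of NRF2 activity. Its level in the treadmill group was 6.05 FPKM at the lowest, 8.18 at the median and 8.67 at the highest (7.72 ± 1.01, SD, n = 6). In the control group it was 7.33, 9.39 and 10.5 FPKM (9.19 ± 1.17). In catgut group 1 it was 8.85, 9.90 and 12.2 FPKM (10.1 ± 1.27), and in catgut group 2 it was 9.22, 11.7 and 14.1 FPKM (11.8 ± 1.85). All 6 libraries of each catgut group were thus above all 6 treadmill libraries, while the control libraries overlapped with every other group. The log2 fold change against the treadmill group was 0.61 in catgut group 2 (SE 0.14, unadjusted p = 0.000821 and adjusted p = 0.109 from edgeR, ratio of mean FPKM 1.53) and 0.36 in catgut group 1 (SE 0.092, unadjusted p = 0.00161 and adjusted p = 0.257). The exact two-sided permutation test of log2(FPKM + 1) gave p = 0.00216 for each, the smallest p that 6 libraries against 6 allow.

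Against the control group, Nqo1 was 0.22 lower on the log2 scale in the treadmill group (SE 0.097, unadjusted p = 0.0390, adjusted p = 0.535 from edgeR), with 2 of 6 treadmill libraries below all control libraries. It was 0.38 higher in catgut group 2 than in the control group (adjusted p = 0.200), with 5 of 6 libraries above all control libraries, and 0.14 higher in catgut group 1 (adjusted p = 0.675). The calls depended on the tool and on single libraries. With DESeq2 in place of edgeR, Nqo1 had an adjusted p of 0.0449 in catgut group 1 and 0.00737 in catgut group 2 against the treadmill group, and with 1 fit over all 4 groups it had 0.0348 in catgut group 2. The ratio of 1.53 lay close to the limit of 1.5, and it was 1.47 without treadmill replicate 6, 1.47 without catgut group 2 replicate 1 and 1.49 without catgut group 2 replicate 3, so the criterion was not met in these 3 of 12 fits. Treadmill replicate 2 and catgut group 2 replicate 2 were rich in fibroblast transcripts. Without them, the log2 fold change of Nqo1 in catgut group 2 against treadmill was 0.67, and with the slow fibre level as a covariate it was 0.52. That covariate took the value of catgut group 2 against control from 0.38 to 0.13 (adjusted p = 0.803 from edgeR) and that of catgut group 1 from 0.14 to 0.075. Both of these fits were added after the data had been seen.

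The 6 muscle marker transcripts did not all differ in 1 direction between catgut group 2 and the treadmill group. There 1 was higher (0.48), and their median log2 fold change was -0.24. Their sum was 82107 to 96404 FPKM in the treadmill group and 73518 to 80852 FPKM in catgut group 2, without overlap, while catgut group 1 (72258 to 95984 FPKM) and the control group (73284 to 88311 FPKM) overlapped with both. Over the 24 libraries the sum correlated with Nqo1 at r = -0.59 (rho = -0.66, within groups r = -0.34) and with Sod1 at r = -0.64 (rho = -0.67, within groups r = -0.48). The sum of liver markers, by median mostly Tf, was at least 14.6 FPKM in the treadmill group and at most 14.1 FPKM in catgut group 1. It correlated with Nqo1 at r = -0.30. With the liver level as a covariate, the log2 fold changes of Nqo1 over the treadmill group were 0.41 for catgut group 1 and 0.65 for catgut group 2. The part of the muscle marker level in the differences of Nqo1 and Sod1 was not tested.

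Sod1 had 169, 221 and 239 FPKM at the lowest, the median and the highest in the treadmill group, 213, 221 and 249.9 in the control group, 233, 249.9 and 301 in catgut group 1, and 231, 255 and 291 in catgut group 2. The groups overlapped, but 5 of 6 libraries of catgut group 1 and 4 of 6 of catgut group 2 lay above all treadmill libraries. The log2 fold change against the treadmill group was 0.24 in both catgut groups (95% intervals 0.030 to 0.46 and 0.043 to 0.43, adjusted p = 0.614 and 0.347 from edgeR). The exact permutation test gave p = 0.00433 for catgut group 1 and p = 0.00866 for catgut group 2. Against the control group, the difference was 0.17 in each catgut group (adjusted p = 0.518 and 0.252), and in the treadmill group it was -0.070 (95% interval -0.24 to 0.10).

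Sod3, which is secreted and bound to the matrix around cells and vessels, had 36.4, 45.7 and 58.8 FPKM at the lowest, the median and the highest in the treadmill group, 38.8, 48.7 and 64.1 in the control group, 47.1, 56.1 and 63.6 in catgut group 1, and 44.2, 59.8 and 81.4 in catgut group 2. Its log2 fold change against the treadmill group was 0.35 in catgut group 2 (SE 0.11, unadjusted p = 0.00902, adjusted p = 0.264) and 0.22 in catgut group 1 (SE 0.095, unadjusted p = 0.0351, adjusted p = 0.650), from edgeR. The groups overlapped in both cases, with 4 of 6 libraries of catgut group 2 and 1 of 6 of catgut group 1 above all treadmill libraries. These 4 libraries were the ones of catgut group 2 with less than 1 FPKM of Y-linked transcripts. Over 13 alternative fits, the value in catgut group 2 ran from 0.29, with the Y-linked level as a covariate, to 0.40, with the liver level. The part of the Y-linked level in this difference was not tested.

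Sod2, the dismutase of the mitochondrial matrix, held the narrowest range of the 10 genes, from 135 to 176 FPKM over the 24 libraries. Its group means were 149 ± 10.2 FPKM in the control group, 151 ± 11.1 in the treadmill group, 153 ± 13.9 in catgut group 1 and 157 ± 10.2 in catgut group 2 (SD, n = 6 each). The 95% intervals of its fold changes bound a difference to between 0.886 and 1.21 times for treadmill against control, 0.842 and 1.17 times for catgut group 1 against treadmill, and 0.851 and 1.22 times for catgut group 2 against treadmill. Within the summed FPKM of the 3 dismutases, Sod1 took 47.2 to 58.0 percent per library, Sod2 30.4 to 42.2 percent and Sod3 8.92 to 15.8 percent.

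Gpx1, a selenoenzyme that reduces hydrogen peroxide with glutathione, had 69.2, 83.0 and 132 FPKM at the lowest, the median and the highest in the control group, 84.9, 112 and 205 in the treadmill group, 61.5, 131 and 183 in catgut group 1, and 89.3, 140.2 and 270.4 in catgut group 2. Every trained group reached above the control range, and every group overlapped with it. The log2 fold change against the control group was 0.74 in catgut group 2 (SE 0.27, unadjusted p = 0.0177, adjusted p = 0.201, ratio of mean FPKM 1.66), which met the criterion. It was 0.51 in the treadmill group (SE 0.25, 95% interval -0.026 to 1.04, adjusted p = 0.555) and 0.42 in catgut group 1 (95% interval -0.16 to 1.01, adjusted p = 0.652). Without catgut group 2 replicate 6, its highest library, the value in catgut group 2 was 0.46 and the criterion was not met, and without control replicate 2 the treadmill group met it as well (0.66, ratio 1.52).

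The level of Gpx1 went with that of slow fibre transcripts. Over the 24 libraries, the sum of Tnni1, Tnnt1, Tnnc1, Myh7, Myl2 and Myl3, a list added after the data had been seen, correlated with Gpx1 at Pearson's r = 0.85 (Spearman's rho = 0.90, within groups r = 0.84, r = 0.87 without the 2 libraries farthest from the median), as a description over libraries that share their groups and depth. The 2 genes most like Gpx1 were Ldhb, the lactate dehydrogenase subunit of oxidative fibres (r = 0.92), and Casq2, the calsequestrin of slow and cardiac muscle (r = 0.91). The median of the slow fibre sum was 212 FPKM in the control group, 914 in the treadmill group, 1543 in catgut group 1 and 1381 in catgut group 2, with ranges that overlapped (31.8 to 1782 FPKM in the control group and 297 to 4311 in catgut group 2). Catgut group 2 replicate 6 had both the highest Gpx1 (270.4 FPKM) and the highest slow fibre sum (4311 FPKM) of all libraries. The slow fibre level used as a covariate was the mean of log2(FPKM + 1) over these transcripts, not their sum. With it, the log2 fold change of Gpx1 in catgut group 2 against control was 0.022 in place of 0.74. That of catgut group 1 against control was 0.018 in place of 0.42, and that of the treadmill group was 0.27 in place of 0.51. The same covariate moved other members in catgut group 2 against control the other way, Hmox1 from 0.36 to 1.00, Gpx3 from 0.16 to 0.94 and Gclc from 0.047 to 0.56 (adjusted p = 0.0758, 0.115 and 0.172 from edgeR). The slow fibre sum itself had a higher median in every trained group than in the control group. In these fits, slow fibre content and training cannot be told apart. The part of slow fibre transcripts in the level of Gpx1 was not tested.

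**Figure D3:**
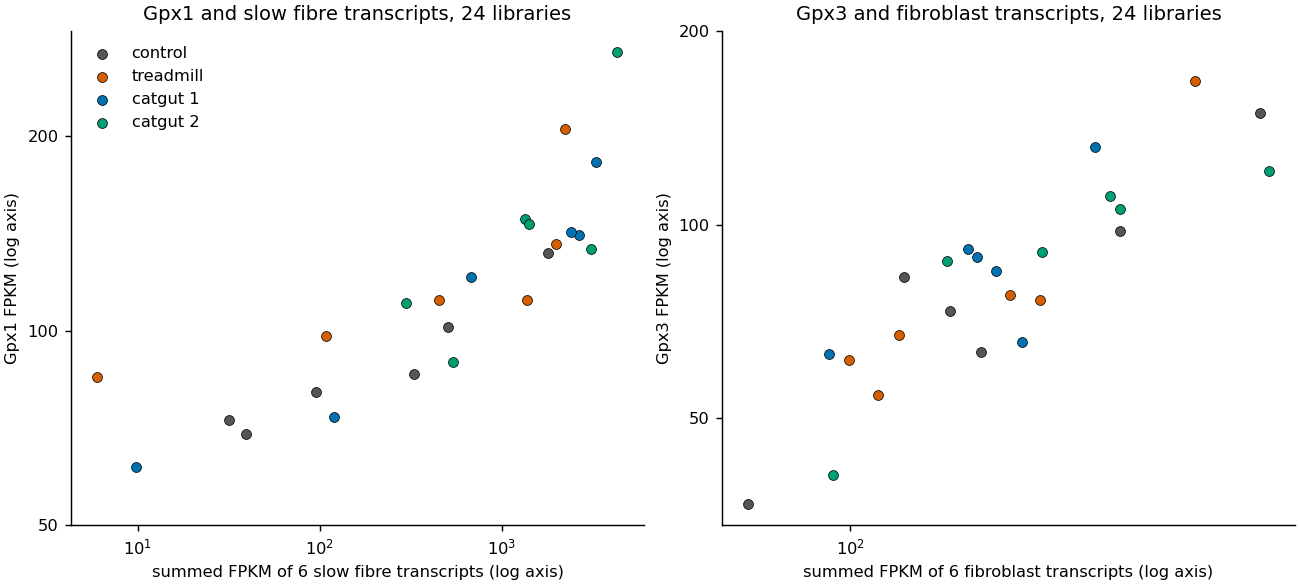
Left, Gpx1 (FPKM, log axis) against the summed FPKM of 6 slow fibre transcripts (log axis) in 24 libraries coloured by group; right, Gpx3 against the summed FPKM of 6 fibroblast transcripts. Gpx1 is highest (270.4 FPKM) in the library with the highest slow fibre sum, and the 3 libraries with over 400 FPKM of fibroblast transcripts have 121 to 167 FPKM of Gpx3.

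Gpx3, which is made in kidney and by connective tissue cells and acts outside cells, had 36.8, 78.3 and 149 FPKM at the lowest, the median and the highest in the control group, 54.4, 71.9 and 167 in the treadmill group, 62.8, 87.0 and 132 in catgut group 1, and 40.7, 98.3 and 121 in catgut group 2. The groups overlapped throughout, and without a covariate the log2 fold change farthest from 0 was 0.16, in catgut group 2 against control (95% interval -0.43 to 0.76). It was 0.94 there with the slow fibre level as a covariate. Gpx3 went with fibroblast markers (Col1a1, Col1a2, Dcn, Pdgfra, Lum and Dpt) at r = 0.88 (rho = 0.86, within groups r = 0.89, r = 0.88 without the 2 farthest libraries), and the genes most like it were Procr (r = 0.92), Serpinf1 (r = 0.91) and Gsn (r = 0.89). It also went with macrophage markers (r = 0.70, within groups r = 0.74) and with the kidney list (r = 0.56, within groups r = 0.56). Its highest values were in treadmill replicate 2 (167 FPKM) and control replicate 4 (149 FPKM), which had fibroblast sums of 451 and 598 FPKM. The list of kidney markers had a median sum of 1.36 FPKM and a highest sum of 17.6 FPKM, in control replicate 4, and was listed at 0 in 6 libraries. Its part in the level of Gpx3 was not tested.

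Cat, the peroxisomal enzyme that breaks down hydrogen peroxide without a cofactor to recycle, had 41.5, 63.4 and 76.1 FPKM at the lowest, the median and the highest in the control group, 38.1, 53.7 and 60.0 in the treadmill group, 42.4, 66.7 and 92.5 in catgut group 1, and 52.2, 64.4 and 68.4 in catgut group 2. On the log2 scale Cat differed by -0.21 for treadmill against control (95% interval -0.60 to 0.17), 0.37 for catgut group 1 against treadmill (-0.10 to 0.84) and 0.24 for catgut group 2 against treadmill (-0.078 to 0.56), all with adjusted p over 0.05. Catgut group 1 fell into 3 high and 3 low libraries. The 3 libraries with less than 1 FPKM of Y-linked transcripts had 82.5 to 92.5 FPKM of Cat, and the 3 with more had 42.4 to 50.9 FPKM. In catgut group 2, the 4 libraries under this limit had 63.2 to 68.4 FPKM and the 2 above it had 52.2 to 53.3 FPKM. In the control group (61.3 to 76.1 against 41.5 to 65.4 FPKM) and in the treadmill group (40.0 to 60.0 against 38.1 to 58.2 FPKM), the libraries under and over the limit overlapped.

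Sod3 was without overlap in 2 groups. In the treadmill group, the libraries under the limit had 48.4 to 58.8 FPKM and those over it 36.4 to 43.0 FPKM, and in catgut group 2 the values were 59.5 to 81.4 and 44.2 to 47.4 FPKM. In the control group and in catgut group 1 they overlapped. Nqo1 did not overlap in the treadmill group (8.25 to 8.67 FPKM under the limit and 6.05 to 8.10 over it), nor did Gpx1 in the control group (85.8 to 132 and 69.2 to 80.2 FPKM) or Txnrd1 in catgut group 1 (23.5 to 24.6 and 15.8 to 21.9 FPKM). In all, 7 of the 40 sets of a member and a group did not overlap. Of all 14772 genes, 14.9 percent did not overlap in the control group, 14.0 percent in the treadmill group, 8.5 percent in catgut group 1 and 17.1 percent in catgut group 2, so the members' count lay near that of all genes. The limit was set after the levels had been seen, and the split is a description with no test. Catgut group 2 held 4 libraries under the limit and 2 over it, while the other groups held 3 and 3, although the study's methods give each group as many male as female rats.

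**Figure D4:**
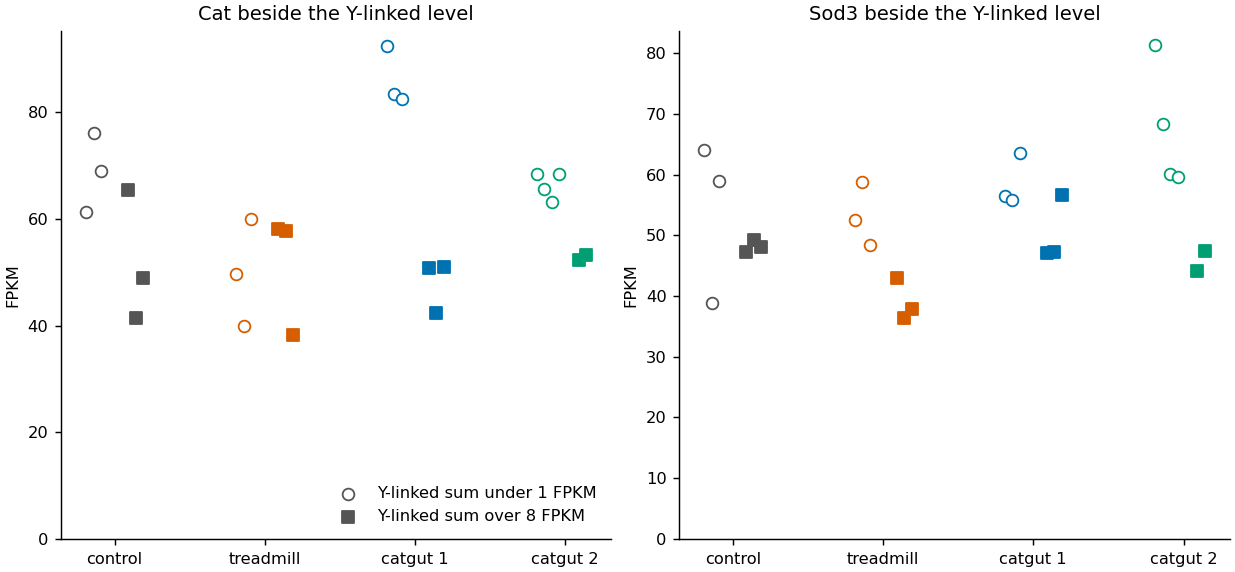
FPKM of Cat (left) and Sod3 (right) by group, with libraries under 1 FPKM of summed Y-linked transcripts as open circles and those at 8.45 FPKM or more as filled squares. In catgut group 1, Cat is 82.5 to 92.5 FPKM in the open circles and 42.4 to 50.9 FPKM in the filled squares.

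Hmox1 breaks down heme to biliverdin, iron and carbon monoxide and is induced by heme and oxidants. Its level was 2.09, 4.04 and 6.59 FPKM at the lowest, the median and the highest in the control group, 2.32, 3.03 and 10.3 in the treadmill group, 3.88, 4.92 and 9.27 in catgut group 1, and 3.29, 5.15 and 7.58 in catgut group 2. The log2 fold change of catgut group 1 against control was 0.63 (SE 0.27, unadjusted p = 0.0343, adjusted p = 0.467 from edgeR, ratio of mean FPKM 1.53), which met the criterion, with 2 of 6 libraries above all control libraries. The criterion was not met without control replicate 1 (0.56), control replicate 2 (0.51), catgut group 1 replicate 2 (0.48) or catgut group 1 replicate 5 (0.51), nor in 6 of 13 other alternative fits, the replicate block among them (0.61). A single treadmill library, replicate 4 with 10.3 FPKM, held the mean of that group up. Without it, Hmox1 met the criterion against the treadmill group in both catgut group 1 (0.89, ratio 1.85) and catgut group 2 (0.63, ratio 1.53), in place of 0.42 and 0.14 with it. Leaving out the highest library of a group lowers its mean in any case, and Dixon's criterion did not flag this library for Hmox1. Of all genes, 515 and 633 met the criterion in these fits. The lowest adjusted p of Hmox1 over the 12 fits that left out 1 library was 0.443 and 0.339 from edgeR. The log2 fold change of Hmox1 for treadmill against control was -0.26 without this library and 0.21 with it. Hmox1 went with endothelial markers at r = 0.65 and with fibroblast markers at r = 0.57 over the 24 libraries.

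Txnrd1, which recycles thioredoxin with NADPH, had group means of 20.8 ± 1.85 FPKM in the control group, 19.1 ± 3.03 in the treadmill group, 22.0 ± 3.29 in catgut group 1 and 20.7 ± 1.79 in catgut group 2 (SD, n = 6 each). The groups overlapped, and the 95% interval of the fold change was 0.885 to 1.13 times for catgut group 2 against control, where the log2 fold change was -0.00056. Gclc had group means of 4.49 ± 2.05, 4.88 ± 2.31, 4.57 ± 0.882 and 4.57 ± 0.900 FPKM in the same order. Its highest values, 9.32 FPKM in treadmill replicate 2 and 8.35 FPKM in control replicate 4, stood in the 2 libraries that were also highest in Gpx3. Gclc correlated with the kidney list at r = 0.79 and with fibroblast markers at r = 0.63 over the 24 libraries. Without a covariate, no log2 fold change of Gclc between any 2 groups was beyond 0.16 in size, against 0.56 in catgut group 2 against control with the slow fibre level as a covariate, and its widest 95% interval, for treadmill against control, was -0.42 to 0.73.

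Among themselves, the 10 members gave 45 pairs, with correlations over the 24 libraries from -0.40 (Gpx1 with Gclc) to 0.74 (Nqo1 with Sod1) and a median of 0.26. Nqo1 and Sod1 had r = 0.55 within groups, so part of their likeness lay between groups. Gpx3 correlated with Gclc (r = 0.66) and with Hmox1 (r = 0.66). The genes most like Nqo1 were Mccc1 (r = 0.84), Il11ra1 (0.79) and Spag1 (0.78), those most like Sod1 were Psmd8 (0.82), Ak3 (0.81) and Coasy (0.81), and those most like Sod2 were Acadm (0.82), Acsl1 (0.80) and Atp5pf (0.77). For the other members they were Eif2s3, Pa2g4 and Gstm1 (Sod3), Ppp1r37, Ivd and Slc25a42 (Cat), Cttnbp2nl, Avpi1 and Dlc1 (Hmox1), Aldh1a1, Jak1 and Tfb1m (Txnrd1) and Tmem30a, Setdb2 and Cc2d2a (Gclc), with r from 0.71 to 0.88. Nr0b2 was the third gene for Gpx1 (0.90).

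The other genes of the pathway were taken from lists of NRF2 regulators, glutathione, thioredoxin, NADPH supply, heme, iron and metal binding, conjugation (enzymes with antioxidant response elements) and oxidant sources. They hold 66 symbols, of which 63 were in the table and 62 were tested. For treadmill against control, 2 of 62 met the criterion, both higher, against 2.85 percent of all genes. For catgut group 1 against treadmill, 1 was higher and 1 lower, and for catgut group 2 against treadmill 2 were higher and 1 lower, against 3.12 and 3.76 percent. Against control, 4 were higher and 1 lower in catgut group 1 and 3 were higher and 0 lower in catgut group 2, against 4.62 and 5.95 percent. Between the catgut groups 0 met it. These counts lay close to what those percentages of 62 genes give, and nothing is read from them. The median log2 fold change of the 62 was -0.0043 for treadmill against control, 0.029 and 0.086 for catgut group 1 and catgut group 2 against treadmill, and 0.064 and 0.16 for them against control.

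Prdx1, a peroxiredoxin that reduces hydrogen peroxide with thioredoxin, was the one gene of these lists with an adjusted p under 0.05. It was 1 of 62, in catgut group 2 against treadmill, where 0.237 percent of all genes had one. It had 116 to 155 FPKM in the treadmill group (134 ± 15.0, SD, n = 6) and 165 to 191 FPKM in catgut group 2 (178 ± 8.97), with no overlap. On the log2 scale the difference was 0.39 (SE 0.0700), and edgeR gave an adjusted p of 0.0457. The call was narrow, since the adjusted p was under 0.05 in 4 of 13 alternative fits (0.00000429 with DESeq2) and in 1 of the 12 fits that left out 1 library, the one without treadmill replicate 3 (0.0386). The other 11 gave 0.053 to 0.141 and a log2 fold change between 0.37 and 0.40. In catgut group 1 Prdx1 was at 166 ± 22.3 FPKM, with a log2 fold change of 0.28 against treadmill (adjusted p = 0.332), and in the control group it was at 152 ± 10.9 FPKM.

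Ephx1, the microsomal epoxide hydrolase, had the largest difference among the conjugation genes against the treadmill group. It was at 9.49 ± 3.30 FPKM in the treadmill group, 12.5 ± 5.73 in the control group, 16.4 ± 4.62 in catgut group 1 and 20.7 ± 4.61 in catgut group 2. The log2 fold change against treadmill was 1.10 in catgut group 2 (adjusted p = 0.115) and 0.75 in catgut group 1 (adjusted p = 0.445), and against control it was 0.78 in catgut group 2 (adjusted p = 0.162), from edgeR. The criterion was met in each of these 3 comparisons in all 13 alternative fits and all 12 fits that left out 1 library. Of the genes without overlap between catgut group 2 and the treadmill group, 3 were in these lists, against 1.04 percent of all genes. They were Prdx1, the glutathione conjugate exporter Abcc1 (0.46, adjusted p = 0.0790) and the thioredoxin reductase Txnrd3 (0.38, adjusted p = 0.296), and the last did not overlap in catgut group 1 either (0.38, adjusted p = 0.370). Abcc1 and Txnrd3 were picked out after their values were seen.

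**Figure D5:**
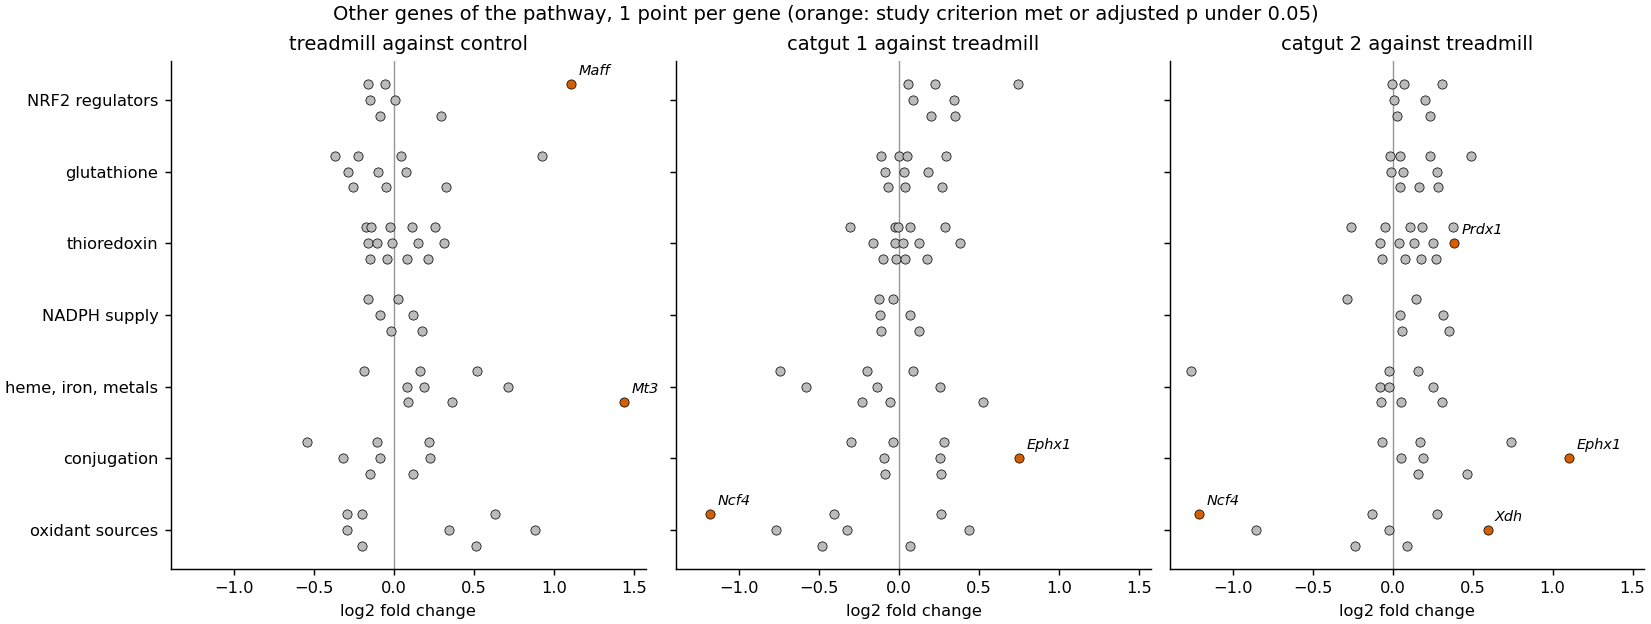
Log2 fold change of the 62 other pathway genes tested, by list, in the 3 comparisons of the study's design. Orange points met the study's criterion or had an adjusted p under 0.05 and are named, and grey points did neither. Ephx1 lies at 0.75 and 1.10 in the catgut comparisons and Prdx1 at 0.39 in that of catgut group 2.

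Maff and Mt3 met the criterion against the control group in all 3 trained groups. Maff, a small MAF protein, was at 2.74 ± 0.761 FPKM in the control group and at 5.94 ± 4.48, 9.79 ± 5.73 and 5.87 ± 1.93 FPKM in the treadmill group and catgut groups 1 and 2, with log2 fold changes against control of 1.11, 1.85 and 1.11 (adjusted p = 0.484, 0.189 and 0.0711). All 6 libraries of catgut group 2 were above all control libraries. The metallothionein Mt3 met the criterion against control in the treadmill group (1.44), catgut group 1 (1.21) and catgut group 2 (1.42), at a low level of 0.769 ± 0.4 FPKM in the control group. In catgut group 1 against control, the metallothionein Mt2A (1.04) and the NADPH oxidase subunit Ncf1 (0.89) were higher and the membrane glutathione transferase Mgst1 was lower (-0.85). The oxidase subunit Ncf4 was lower than in the treadmill group in catgut group 1 (-1.18) and catgut group 2 (-1.21) at levels of 0.475 to 1.13 FPKM, and xanthine dehydrogenase (Xdh) was higher in catgut group 2 (0.59). When 1 library at a time was left out, the criterion held in 3 of 12 fits for Ncf1 and 5 of 12 for Mgst1, and in catgut group 2 in 5 of 12 for Ncf4 and 5 of 12 for Xdh, against 12 of 12 for Mt2A and 11 of 12 for Ncf4 in catgut group 1. None of these had an adjusted p under 0.05 in the edgeR test as reported. In catgut group 2 against control, 2 of 13 alternative fits gave one for Maff and 1 of 13 for Mt3. In catgut group 1 against control, 1 of 13 gave one for Maff. Leaving out 1 library gave one for Maff in catgut group 2 against control in 1 of 12 fits.

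Promoter windows of 250 bases before the gene start, from the RefSeq table for build GRCr8, were searched for TGACNNNGC on both strands, the core of the antioxidant response element. Of the 10 members, 8 had a window, all but Hmox1 and Sod3, and 2 of them held the letters, Sod2 and Txnrd1. Among all 27457 genes with a window, 11.0 percent held them, and among the 54 pathway genes with one 13 did, Prdx1 and Ephx1 included. The conjugation list, which holds Ephx1, was drawn up as enzymes with antioxidant response elements. The share among the pathway genes was thus partly set by the choice of lists, and nothing is read from it. The window of Nqo1 is shown since Nqo1 was the member without overlap against the treadmill group, that of Prdx1 for its adjusted p and that of Ephx1 for the largest increase among the pathway genes in catgut group 2 against treadmill, and those of Sod2 and Txnrd1 as the members with a match. Each is written 5′ to 3′ on the strand of the gene, and capitals mark the match, which in every case lies on the opposite strand.
Nqo1, chr19:52220268-52220517, minus strand, no match: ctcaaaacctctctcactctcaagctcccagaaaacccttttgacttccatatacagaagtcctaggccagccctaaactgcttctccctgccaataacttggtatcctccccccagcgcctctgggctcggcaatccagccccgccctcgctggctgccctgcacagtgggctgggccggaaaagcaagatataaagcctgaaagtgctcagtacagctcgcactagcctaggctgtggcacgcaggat
Prdx1, chr5:135383656-135383905, plus strand: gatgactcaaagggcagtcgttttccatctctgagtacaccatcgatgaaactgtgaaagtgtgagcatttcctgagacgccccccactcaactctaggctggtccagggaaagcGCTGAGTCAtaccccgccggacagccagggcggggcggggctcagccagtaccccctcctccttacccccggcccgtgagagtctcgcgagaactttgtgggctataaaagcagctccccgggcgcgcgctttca
Ephx1, chr13:95263118-95263367, minus strand: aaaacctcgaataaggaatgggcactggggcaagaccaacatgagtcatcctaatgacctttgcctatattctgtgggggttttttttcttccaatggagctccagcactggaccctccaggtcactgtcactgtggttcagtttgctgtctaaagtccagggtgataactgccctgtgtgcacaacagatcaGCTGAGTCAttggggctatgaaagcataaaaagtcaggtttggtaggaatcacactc
Sod2, chr1:50050169-50050418, minus strand: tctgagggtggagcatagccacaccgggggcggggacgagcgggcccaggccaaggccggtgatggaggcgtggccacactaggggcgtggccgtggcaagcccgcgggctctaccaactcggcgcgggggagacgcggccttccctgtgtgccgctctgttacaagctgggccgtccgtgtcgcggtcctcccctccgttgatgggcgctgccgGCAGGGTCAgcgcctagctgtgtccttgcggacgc
Txnrd1, chr7:22755905-22756154, minus strand: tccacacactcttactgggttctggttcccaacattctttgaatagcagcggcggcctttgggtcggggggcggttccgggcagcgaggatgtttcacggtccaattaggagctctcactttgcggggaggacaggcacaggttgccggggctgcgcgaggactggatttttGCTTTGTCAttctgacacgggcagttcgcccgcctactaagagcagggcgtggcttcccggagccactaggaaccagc
The match starts 135 bases before the gene start in Prdx1, 57 in Ephx1, 35 in Sod2 and 78 in Txnrd1, and the last has a second window without a match. Prdx1 and Ephx1 share the same 9 letters, GCTGAGTCA. The members with a match, Sod2 and Txnrd1, had log2 fold changes between -0.012 and 0.18 against the treadmill group in the catgut groups, and Nqo1, without one in this window, had 0.36 and 0.61. A match is a description of these letters and was not tested as a binding site, and the windows are shorter than many regulatory regions.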

How the data were processed

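RNA was sequenced from quadriceps muscle of 24 rats, as poly(A) paired-end libraries, with 6 in each of 4 groups named by the sample titles. The authors deposited 1 table that gives each gene a count, in whole numbers, and its FPKM in every library. The submitters' processing notes name HISAT2 2.0 and StringTie 1.3.0. Their roles, the counting tool and the genome build are not given in the sources used here. The commonest deposited counts above 0 were 4 and 8, so the counts may not be single fragments, and counts divided by 4 were tried as an alternative. The extraction text in the labels is written for adipose tissue. Genes with a mean of at least 0.1 FPKM were kept, and each pair of groups was tested on the deposited counts with edgeR 4.0.16 (TMM, quasi-likelihood test, no covariates, R 4.3.3) with Benjamini-Hochberg adjustment over all genes kept. Ratios were taken from group mean FPKM. Exact two-sided permutation tests used log2(FPKM + 1), a scale that understates changes of low genes. Alternatives were 12 planned settings, among them DESeq2 1.42.0, limma 3.58.1, a replicate block and leaving out each library, and 2 added after the data had been seen (slow fibre level as a covariate, and leaving out the fibroblast-rich libraries of the groups compared). Where the groups compared held 1 such library, the last is the same fit as leaving out that library. Each level used as a covariate was the mean of log2(FPKM + 1) over the transcripts of its list. The edgeR script was tested on simulated data. The members and gene lists were chosen with earlier results of these data known. All members were named, as were pathway genes that met the criterion or had an adjusted p under 0.05 (at most 4 per list and comparison), and the 3 genes most like each member in log2(FPKM + 1) with a mean of at least 1 FPKM, leaving out placeholder symbols (AABR, LOC, RGD). Abcc1 and Txnrd3 lay outside this rule. Symbols not matched in the table, and not analysed here, included Srxn1 and Pgd of the pathway lists and the markers Myh4, Ttn, Pecam1, Hba-a1 and Uty. Tables were handled in Python 3.11.15 with numpy 2.4.6 and pandas 2.3.3, and figures drawn with matplotlib 3.10.9.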

Additional observations from a re-analysis of the deposited data

Results flagged for a closer look

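Among 40 sets of 6 libraries (10 genes in 4 groups), 6 held a library far from the others by Dixon's criterion, where chance flags about 1 in 20 groups. They were Sod1 in catgut group 1 replicate 2 (301 FPKM, next 255), Gpx1 in catgut group 2 replicate 6 (270.4 FPKM, next 149), Gpx3 in treadmill replicate 2 (167 FPKM, next 77.8), Gclc in the same library (9.32 FPKM, next 5.50), and, at the low end, Txnrd1 (15.8 FPKM, next 21.4) and Gclc (2.88 FPKM, next 4.42) in catgut group 1 replicate 4, the library with the lowest total count (45945938). Treadmill replicate 2 had 451 FPKM of fibroblast and 173 FPKM of macrophage markers, and catgut group 2 replicate 6 had 4311 FPKM of slow fibre transcripts. The part of these levels in the values was not tested.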

How the results depend on the processing

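The direction of Nqo1, Sod1 and Sod3 in the catgut groups against the treadmill group was the same under all 13 alternatives, and for Nqo1 in catgut group 2 the log2 fold change was 0.52 to 0.67 and the adjusted p 0.00737 to 0.24. Counts of calls moved more. Members with an adjusted p under 0.05 numbered 1 in catgut group 1 against treadmill with DESeq2, and 1 in catgut group 2 against treadmill with DESeq2 and with 1 fit over all 4 groups. Of all 14772 genes, 140, 306 and 54 were called in these fits. Members that met the criterion numbered 0 in catgut group 1 against control with 1 fit over all groups, limma with a pseudocount of 1 or 0.1, the replicate block, and the liver or slow fibre level as a covariate, and 0 in catgut group 2 against control with the slow fibre level. In the former fits 460 to 726 of all genes met it, and in the latter 517. Pathway genes with an adjusted p under 0.05 numbered, with DESeq2, 1 in catgut group 1 and 3 in catgut group 2 against treadmill, and 1 and 6 against control. DESeq2 called 140, 306, 167 and 712 of all 14772 genes in the same order, against 7, 35, 3 and 75 with edgeR. In catgut group 2 against treadmill the pathway genes called numbered 0 without a filter on low values, with limma at either pseudocount, counts divided by 4, the replicate block, the Y-linked, liver or slow fibre level, and without the fibroblast-rich libraries. Over all genes, 3 to 48 were called in these fits. In catgut group 2 against control the pathway genes called numbered 1 with a mean of at least 1 FPKM and with the Y-linked level. In these fits 104 of 10475 and 133 of 14772 genes were called. Pathway genes that met the criterion numbered 1 in treadmill against control with limma or the replicate block, and 1 in catgut group 1 against treadmill with these and with a mean of at least 1 FPKM. Over all genes, 352 to 437 met it in the former fits and 205 to 419 in the latter. The pathway genes numbered 3 in catgut group 1 against control with the pseudocount of 0.1, and 5 in catgut group 2 against control without the fibroblast-rich libraries. Beside them, 607 and 951 of all genes met the criterion. Between the catgut groups the pathway genes numbered 1 without a filter, with limma and with the replicate block, and 2 with DESeq2 and with the slow fibre level. Over all genes, 188 to 578 met the criterion in the former fits and 195 to 199 in the latter.

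Leaving out 1 library at a time, members that met the criterion numbered 0 to 1 in treadmill against control, 0 to 1 and 0 to 2 in the catgut groups against treadmill, 0 to 1 in each catgut group against control, and 0 between the catgut groups. Members with an adjusted p under 0.05 numbered 0 throughout. Pathway genes that met the criterion numbered 2 to 3, 2 to 3, 1 to 3, 3 to 5, 3 to 5 and 0 to 3 in the same order, and those with an adjusted p under 0.05 numbered 0 to 1 in catgut group 2 against treadmill, 0 to 2 in catgut group 2 against control and 0 in the other 4. Of all 14772 genes, 366 to 652, 408 to 521, 498 to 654, 577 to 802, 753 to 1098 and 170 to 271 met the criterion. In catgut group 2, 6 to 30 of all genes had an adjusted p under 0.05 against treadmill and 12 to 492 against control. For treadmill against control the ranges that crossed 0 were -0.26 to 0.36 for Hmox1, -0.20 to 0.20 for Gpx3 and -0.045 to 0.36 for Gclc. For catgut group 1 against treadmill the ranges that crossed 0 were -0.080 to 0.033 for Sod2, -0.22 to 0.12 for Gpx1, -0.054 to 0.30 for Gpx3 and -0.19 to 0.098 for Gclc. For catgut group 2 against treadmill the ranges that crossed 0 were -0.053 to 0.077 for Sod2, -0.043 to 0.45 for Gpx1 and -0.18 to 0.086 for Gclc. For catgut group 1 against control the ranges that crossed 0 were -0.0059 to 0.088 for Sod2, -0.041 to 0.28 for Gpx3 and -0.042 to 0.26 for Gclc. For catgut group 2 against control the ranges that crossed 0 were -0.0065 to 0.11 for Sod2, -0.059 to 0.12 for Cat, -0.057 to 0.036 for Txnrd1 and -0.055 to 0.25 for Gclc. For catgut group 2 against catgut group 1 the ranges that crossed 0 were -0.050 to 0.033 for Sod1, -0.045 to 0.072 for Sod2, -0.24 to 0.019 for Cat, -0.030 to 0.21 for Gpx3 and -0.087 to 0.032 for Gclc.

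Fold changes that changed sign were small, and none had met a criterion. With the slow fibre level, Sod2 was -0.031 in treadmill against control, -0.11 in catgut group 2 against treadmill, -0.030 and -0.092 in catgut groups 1 and 2 against control and -0.021 between the catgut groups. Gpx1 was then -0.18 and Gclc 0.094 in catgut group 2 against treadmill, Cat was -0.22 in catgut group 2 against control, and Gclc was 0.033 between the catgut groups. Without the fibroblast-rich libraries, Gpx3 was -0.028 in treadmill against control, Gclc 0.098 and 0.030 in catgut groups 1 and 2 against treadmill, Sod2 -0.023 in catgut group 2 against treadmill and -0.0059 in catgut group 1 against control, and Txnrd1 0.0050 in catgut group 2 against control. With limma, Sod2 was 0.022 in catgut group 1 against treadmill at either pseudocount, and between the catgut groups Sod1 was 0.00057 at either, and Gclc 0.0032 and 0.0053. With the liver level, Sod2 was 0.030 and Gpx1 0.16 in catgut group 1 against treadmill, Hmox1 -0.11 in catgut group 2 against treadmill, Gpx3 -0.053 and Gclc -0.010 in catgut group 1 against control, and Txnrd1 0.020 and Gclc -0.013 in catgut group 2 against control. In that last comparison, Txnrd1 was 0.0032 with median ratio size factors, 0.0020 with 1 fit over all groups, 0.0031 with DESeq2 and 0.00015 with the Y-linked level, and Cat was -0.041 with the Y-linked level. The causes were not tested. In a paired fit with the replicate block, Nqo1 in catgut group 2 against treadmill was 0.58 (adjusted p = 0.24 from edgeR). The replicate number went with the Y-linked level in the control group, the treadmill group and catgut group 1. There, replicates 1 to 3 summed to less than 1 FPKM of Y-linked transcripts and replicates 4 to 6 to more. In catgut group 2, replicates 1 and 5 were over this limit. Otherwise the libraries share only a number. After removal of group means, same-numbered libraries correlated at -0.45 to 0.27, and at 0.0016 to 0.21 in catgut group 1 against control. No comparison had all 6 libraries correlate best with their own number, and catgut group 1 against control had 3 of 6.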
